A study of Trichosurus vulpecula with 6 samples.

Results

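The genes described here are RAB27A, MLPH, MYO5A, RAB38, RAB32 and SYTL2, which take part in the transport and loading of melanosomes, the pigment organelles of melanocytes. They were chosen by name, 6 of the 18106 RefSeq genes with an assembled transcript in possum ear skin, and all 6 had a transcript in each of the 6 libraries. RNA was sequenced from ear punches of black brushtail possums (Trichosurus vulpecula, n = 3) and grey brushtail possums (n = 3). All 6 animals were adult females, and the labels give no treatment. Levels are given in TPM, an abundance scaled to transcript length and to library size, and transcripts of a gene were added up.

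Melanosomes are made near the nucleus of the melanocyte and must reach the tips of its dendrites before they can pass to keratinocytes and hair. RAB27A, a small GTPase on the mature melanosome, binds melanophilin (MLPH), which in turn binds the actin motor myosin Va (MYO5A), and loss of any of these in mouse (ashen, leaden and dilute) leaves melanosomes clumped around the nucleus and lightens the coat. SYTL2 (Slp2-a) is another RAB27A effector, which tethers melanosomes at the cell membrane, and RAB38 and RAB32 act earlier, in the delivery of tyrosinase and TYRP1 to the immature organelle.

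In the possum reference assembly mTriVul1.pri, the RefSeq spans of RAB27A (163936070 to 163958231) and MYO5A (167069440 to 167301620) lay 3.11 Mb apart on the plus strand of chromosome 8. RAB38 (105145844 to 105195973) and SYTL2 (107844875 to 107950019) lay 2.65 Mb apart on the plus strand of chromosome 2. MLPH (2094817 to 2153671) and RAB32 (110907669 to 110949839) were on the minus strand of chromosome 7. Strands were inferred from the assembled transcripts. MYO5C began 8.25 kb beyond the RefSeq end of MYO5A, and the assembled MYO5A transcripts ran up to 5540 nt past that end without reaching it.

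Aligned sequence came to 6.47 to 8.51 gigabases in the black possum libraries and to 4.17 to 10.2 gigabases in the grey possum libraries. The skeletal muscle markers stood apart in the library of black replicate 1, with a summed 2572 TPM over the 5 of 6 markers with a transcript (MYH2 was listed at 0), against 4.10 and 7.48 TPM in the other black possums and 3.43 to 6.28 TPM in the grey possums. The melanocyte markers summed to 191, 133 and 304 TPM in the black possums and to 110, 311 and 111 TPM in the grey possums, with 14 of 15 genes present and MC1R listed at 0. Grey replicate 1 also stood apart, with 80.8% of TPM in RefSeq genes against 86.5% to 88.7% in the other 5 libraries. Its keratinocyte markers summed to 264 TPM (3 of 8 with a transcript, and KRT5, KRT14, KRT10, KRT1 and PERP listed at 0) against 473 to 718 TPM in the others, its Schwann cell markers to 530 TPM (6 of 6) against 139 to 363 TPM, and its fibroblast markers to 3005 TPM (4 of 4) against 788 to 2402 TPM. A gene listed at 0 had no assembled transcript assigned to its symbol in any library, and whether such a gene is expressed was not tested. In bulk skin, fewer melanocytes and less RNA per melanocyte cannot be told apart.

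None of the 6 genes differed between black and grey skin by limma at an adjusted p of 0.05 over 15608 genes, a threshold that 0.0192% of all genes passed (0.0128% higher and 0.00641% lower in black skin). At an unadjusted p of 0.05 the count was also 0 of 6, against 2.29% of all genes. The TPM ranges of black and grey possums overlapped for all 6 genes, and ranges were separate for 6.34% of all genes. The log2 fold changes, black minus grey on the log2(TPM + 1) scale, lay between -0.19 and 0.23 with a median of 0.05, beside a median of 0.04 over all genes tested.

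**Figure D1:**
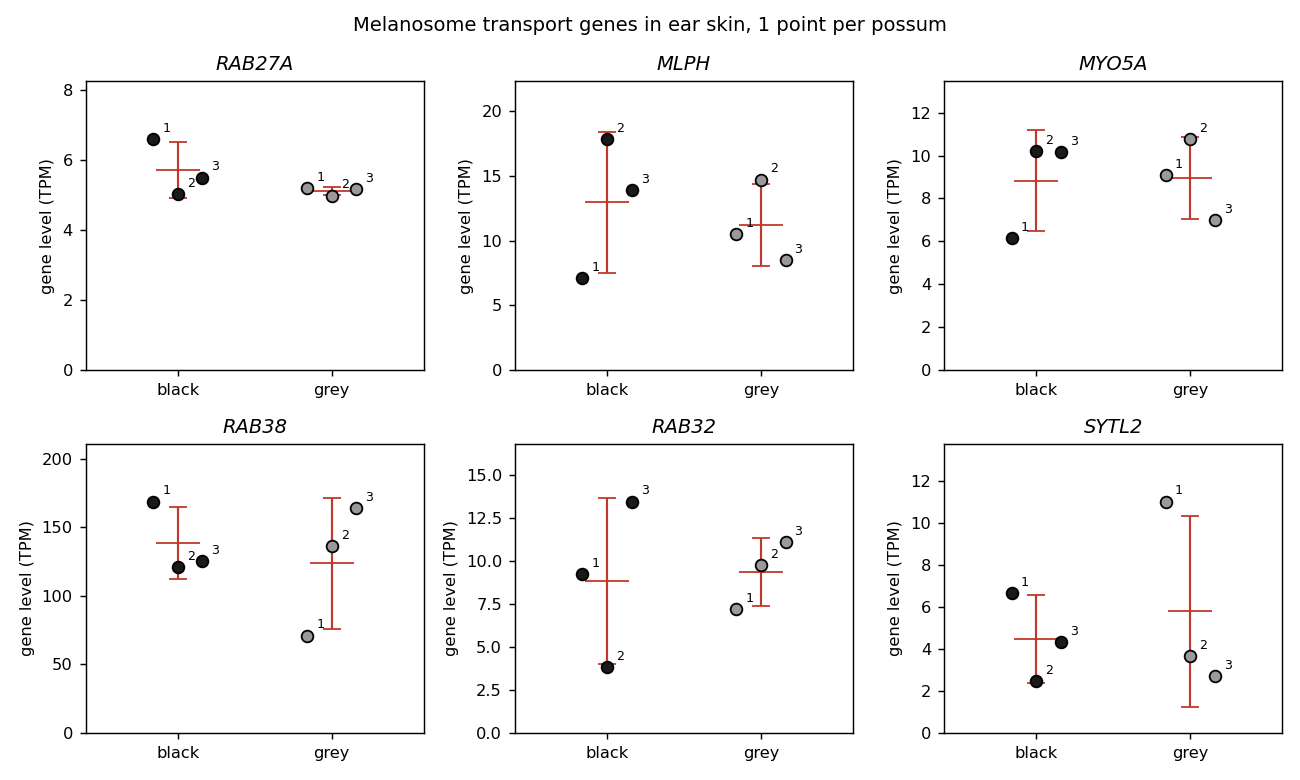
Level of each gene in TPM (vertical axes, linear from 0) in the 3 black and 3 grey possums. Points are single possums, numbered by replicate, and red lines give the mean and SD of each colour. The 2 colours overlap in all 6 panels, and RAB38 lies at 71.0 to 169 TPM while every other gene stays at or below 17.9 TPM.

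RAB38 was by far the most abundant of the genes, at a mean of 131 ± 35.4 TPM over the 6 libraries (SD, n = 6), and its lowest library was above the highest library of MLPH. MLPH followed with 12.1 ± 4.10 TPM, then RAB32 with 9.10 ± 3.31, MYO5A with 8.89 ± 1.90, RAB27A with 5.42 ± 0.61 and SYTL2 with 5.13 ± 3.25 TPM. Below RAB38 the ranges of neighbours in this order overlapped. MYO5A exceeded RAB27A by 3.47 TPM, more than either SD, and the other neighbours differed by less than the SD of the higher gene. MLPH was above RAB32 in 4 of 6 libraries, RAB32 above MYO5A in 3 of 6, MYO5A above RAB27A in 5 of 6 and RAB27A above SYTL2 in 4 of 6.

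RAB27A, the GTPase that recruits the transport complex, had 6.61, 5.04 and 5.50 TPM in the black possums and 5.21, 4.99 and 5.17 TPM in the grey possums. By TPM it was the steadiest of the 6 genes, with the highest library 1.33 times the lowest. Black replicates 1 and 3 were above all the grey possums and black replicate 2 lay among them. The means were 5.72 ± 0.81 and 5.12 ± 0.12 TPM in black and grey skin (SD, n = 3 each; exact 2-sided permutation p = 0.30, where 0.10 is the smallest that 3 against 3 libraries can give). The log2 fold change was 0.13 with a 95% interval of -0.34 to 0.60 (limma adjusted p = 1.00), which covers 0.79-fold to 1.51-fold. With coverage over the 3 internal exons that all 6 libraries shared in place of TPM, the log2 difference was -0.0062. By that measure the highest library was 1.83 times the lowest, more than the 1.63 times of RAB32.

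Transcripts of RAB27A differed between libraries at the 5′ end. In black replicate 1, black replicate 3 and grey replicate 2, the single assembled transcript had 5 exons and began near the RefSeq start. In black replicate 2, grey replicate 1 and grey replicate 3, every assembled transcript began further upstream. Their first exons ended 37.5 to 70.7 kb before the RefSeq start. These forms all passed through a 52 nt exon (chromosome 8, 163914899 to 163914950). Its summed coverage, the mean number of reads over each base, was 4.40 in black replicate 2, against 3.56 in grey replicate 1 and 6.15 in grey replicate 3. Whole transcripts were read more deeply, at a summed 11.2 in grey replicate 1 and 27.7 in grey replicate 3. In black replicate 2 each of the 3 transcripts had 7.56 to 7.61. What part of RAB27A RNA starts upstream in these libraries was not tested. The upstream starts were thus found in 1 of 3 black possums and 2 of 3 grey possums, at a coverage where an exon can be missed by assembly. A form of 1.24 TPM in grey replicate 3 skipped the exons of 175 nt and 86 nt that follow.

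MLPH, which links RAB27A to the motor, had 7.11, 17.9 and 13.9 TPM in the black possums and 10.5, 14.7 and 8.50 TPM in the grey possums. Black replicate 1 was the lowest of the 6 libraries and black replicate 2 the highest, so the grey possums lay inside the range of the black possums. The means were 12.96 ± 5.44 TPM in black skin and 11.2 ± 3.18 TPM in grey skin (SD, n = 3 each; exact permutation p = 0.80). The log2 fold change of 0.14 had a 95% interval of -0.71 to 0.99 (limma adjusted p = 1.00). It was -0.12 without black replicate 2 and -0.03 without grey replicate 3.

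MLPH had the most varied transcripts of the 6 genes, with 27 in all, 2 to 6 in each library and 3 to 15 exons. Transcripts that began at the distal first exon, near the RefSeq start of the gene on the minus strand, held 100%, 88.1% and 78.3% of MLPH TPM in the black possums and 84.1%, 87.0% and 61.8% in the grey possums. The rest began at exons nearer the body of the gene. An exon that ended its genomic span at 2101595 on chromosome 7 came in lengths of 144 nt and 123 nt, which share an upstream splice site and differ by 21 nt at the other, and both lengths were seen in all 6 libraries. The longer form made up 13.8%, 60.0% and 36.5% of the 2 forms in the black possums and 36.9%, 62.6% and 57.8% in the grey possums, with overlap between the colours.

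An inclusion share is the percent of TPM held by transcripts with an exon, out of the transcripts that either hold or skip it. Transcripts with the 123 nt form of the MLPH exon counted as neither holding nor skipping its 144 nt form, and the reverse. The 144 nt share of black replicate 1 was therefore 100%, although this form made up 13.8% of both forms there. The 222 nt exon of MLPH (chromosome 7, 2135573 to 2135794) was included at 86.2%, 63.8% and 62.9% in the black possums and at 72.8%, 31.7% and 49.4% in the grey possums. In grey replicate 2, a form of 2.17 TPM held a 1154 nt exon (2135573 to 2136726) that contains the 222 nt exon. This form counted as neither holding nor skipping. The ranges overlapped through grey replicate 1, and the difference of 19.7 percentage points had an exact permutation p of 0.30. The 84 nt exon (2116573 to 2116656) was included at 13.8%, 26.3% and 0% in the black possums and at 56.9%, 31.7% and 7.37% in the grey possums, a difference of -18.6 points (exact permutation p = 0.40). A 292 nt exon (2143291 to 2143582) was internal to transcripts of grey replicate 1 (15.9%) and grey replicate 3 (33.6%), with 0% in the 3 black possums and grey replicate 2. In black replicate 2, a form of 1.22 TPM began at 2143722 and had exon sequence in this stretch. It counted as neither holding nor skipping the 292 nt exon.

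MYO5A, the motor itself, had 6.14, 10.2 and 10.2 TPM in the black possums and 9.09, 10.8 and 7.0 TPM in the grey possums. Black replicate 1, the library with the muscle markers, was the lowest, and the remaining black possums were level with the higher grey possums. The means were 8.83 ± 2.34 and 8.95 ± 1.89 TPM in black and grey skin (SD, n = 3 each; exact permutation p = 1.00). The log2 fold change of -0.03 had a 95% interval of -0.65 to 0.59 (limma adjusted p = 1.00), and was 0.19 without black replicate 1 and 0.10 without grey replicate 2. The part of muscle RNA in the level of black replicate 1 was not tested.

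A transcript of 40 exons carried most of the MYO5A abundance in every library, at 4.42, 8.82 and 8.28 TPM in the black possums and 6.24, 8.68 and 5.11 TPM in the grey possums. In mouse, myosin Va is spliced in its tail according to cell type. The melanocyte form holds the tail exons called D and F, of which F binds melanophilin, and the brain form holds exon B. Which possum exons correspond to these was not determined, since sequence was not used here, so the exons below are named by length and position.

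The alternative tail exon skipped in more than 1 library was 81 nt long (chromosome 8, 167267585 to 167267665), exon 30 of the 40. Its inclusion share was 100%, 91.0% and 100% in the black possums and 100%, 80.5% and 73.0% in the grey possums. By assembled TPM the exon was thus in most of the MYO5A abundance of both colours. The lowest shares were in grey replicates 2 and 3, and the colours overlapped through the 100% of grey replicate 1. The means were 97.0 ± 5.21% in black skin and 84.5 ± 13.9% in grey skin (SD, n = 3 each), a difference of 12.5 points with an exact permutation p of 0.40. A short form of 1.12 TPM in grey replicate 1 held the exon at a length of 86 nt and counted as neither holding nor skipping it. With this form counted as not holding the exon, grey replicate 1 had 87.6%, all 3 grey possums lay below all 3 black possums, and the difference was 16.6 points (exact permutation p = 0.10, the smallest possible here). With ends matched to within 10 nt it counted as holding, and the share stayed at 100%.

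The coverage of the exon, its 86 nt variant included, was also set against its neighbours, a measure chosen after values were seen. Relative to the following 199 nt exon it was 0.87, 0.70 and 0.67 in the black possums and 0.43, 0.57 and 0.38 in the grey possums, without overlap (exact permutation p = 0.10). Relative to the preceding 101 nt exon it was 1.32, 0.86 and 0.90 in the black possums and 0.97, 0.73 and 0.53 in the grey possums, with overlap through grey replicate 1 (exact permutation p = 0.30). Grey replicate 1, at 100% by inclusion share, was at 0.43 of the following exon and 0.97 of the preceding exon. The skipping transcripts were of different kinds. In black replicate 2 a short form of 0.92 TPM skipped the exon, in grey replicate 2 a short form of 1.46 TPM and a long one of 0.64 TPM did so, and in grey replicate 3 long forms summing to 1.89 TPM did so. The 94 nt exon further 3′ was skipped in grey replicate 3 alone, by a form of 0.39 TPM, for an inclusion share of 94.4%.

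Further 3′, between the exons of 199 nt and 94 nt, a 75 nt exon (167272309 to 167272383) was present in black replicate 1 alone. It lay in a single transcript of 14 exons and 0.67 TPM, which also held the 81 nt exon, and gave an inclusion share of 11.0% in that library. The exon had a coverage of 4.77 there, or 358 aligned bases, against 38.4 for the following 94 nt exon. In the other 5 libraries every assembled MYO5A transcript lacked it, and the difference between colours had an exact permutation p of 1.00. A form below the reach of assembly was not detectable at this depth.

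**Figure D2:**
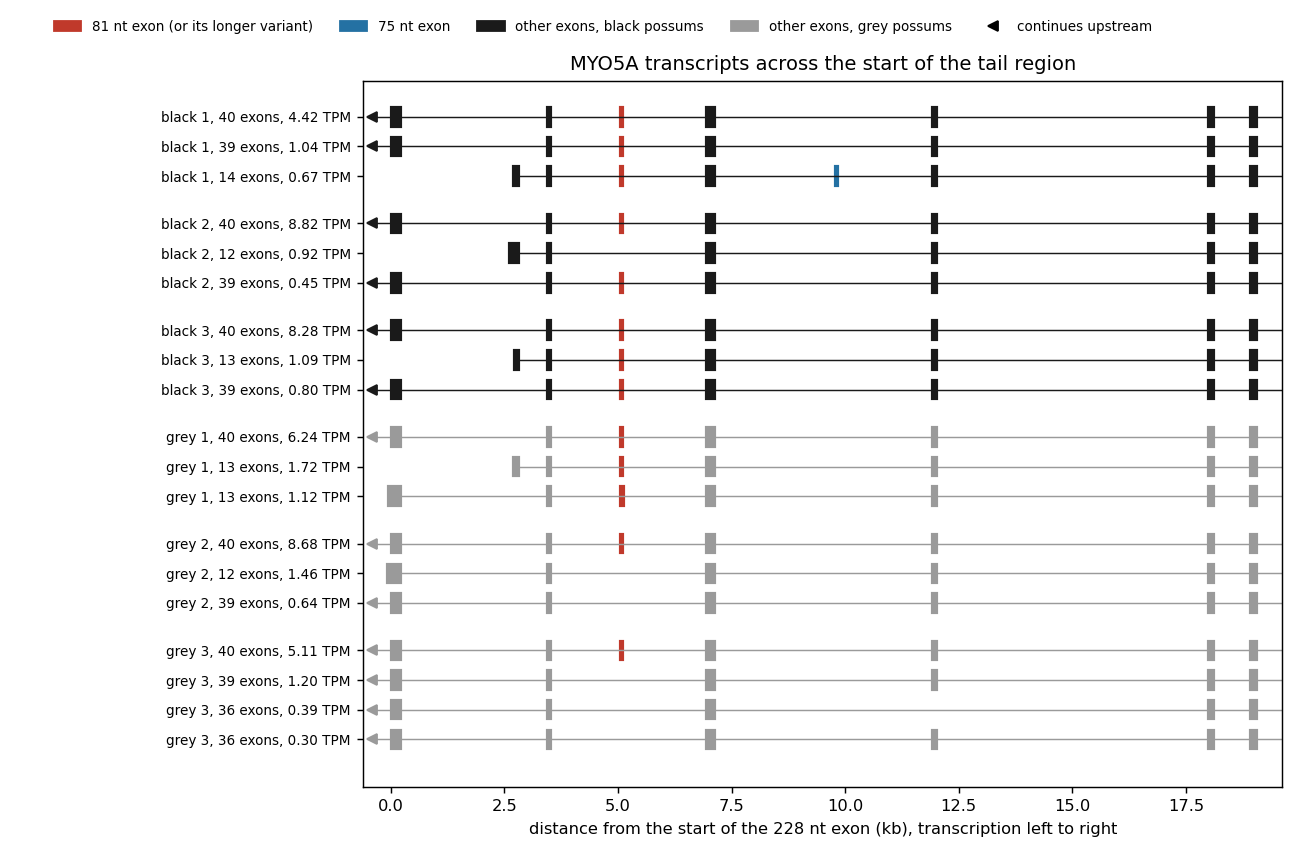
The 19 assembled MYO5A transcripts across the region of the alternative tail exons, drawn to scale by distance in kb from the start of the 228 nt exon, with black possums above grey possums. Each row is a transcript with its library, exon number and TPM, boxes are exons, and arrowheads mark transcripts that continue upstream. The 81 nt exon (red) is in the 40-exon form of all 6 libraries, and the 75 nt exon (blue) is in the 14-exon form of black replicate 1 alone.

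Short MYO5A forms of 12 to 14 exons, which begin just before the tail exons, were found in all 3 black possums and in grey replicates 1 and 2. They held 11.0%, 9.02% and 10.8% of MYO5A TPM in the black possums and 31.3%, 13.5% and 0% in the grey possums. The black possums were close to each other and lay inside the range of the grey possums (difference -4.70 points; exact permutation p = 0.70). The first exon of these forms ended at 167265356 in the 3 black possums and in grey replicate 1, and at 167262771 in grey replicates 1 and 2. Whether they are separate starts or incomplete ends of longer RNAs was not tested. Upstream, a 266 nt exon (167193042 to 167193307) was skipped in part, with inclusion shares of 80.9%, 95.1% and 91.2% in the black possums and 100%, 100% and 90.1% in the grey possums (exact permutation p = 0.30).

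MLPH and MYO5A levels moved together across the 6 libraries. Pearson r of log2(TPM + 1) was 0.94 (exact permutation p = 0.0042) and Spearman rho 0.94 (exact permutation p = 0.017), and over the 15 pairs among the 6 genes the Benjamini-Hochberg adjusted values were 0.062 and 0.25. The relation therefore missed the threshold after adjustment. Pearson r was 0.97 without black replicates 1 and 2, the libraries farthest from the median of MLPH, and 0.96 within black possums and 0.97 within grey possums (n = 3 each). From coverage of shared internal exons per aligned gigabase in place of TPM, r was 0.47. Adjusted permutation p-values of Pearson r for the other 14 pairs were 0.43 or higher.

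SYTL2, the RAB27A effector of the cell cortex, had 6.64, 2.46 and 4.32 TPM in the black possums and 11.0, 3.66 and 2.69 TPM in the grey possums. It varied more than the other 5 genes, with the highest library 4.47 times the lowest, and grey replicate 1, the shallowest library, was well above the others. The means were 4.47 ± 2.09 TPM in black skin and 5.78 ± 4.55 TPM in grey skin (SD, n = 3 each; exact permutation p = 0.80). The log2 fold change of -0.18 had a 95% interval of -1.40 to 1.03 (limma adjusted p = 1.00), and became 0.33 without grey replicate 1 and 0.11 without black replicate 2. Over the 15 internal exons shared by all 6 libraries, the median coverage per aligned gigabase was 1.30, 0.98 and 1.78 in the black possums and 4.68, 1.98 and 1.15 in the grey possums, with grey replicate 1 again the highest.

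Forms of SYTL2 that begin downstream of its long 804 nt exon (chromosome 2, 107891735 to 107892538) held 79.1%, 0% and 20.2% of SYTL2 TPM in the black possums and 41.7%, 0% and 32.2% in the grey possums, with no separation by colour (exact permutation p = 0.90). In black replicate 1 no assembled transcript spanned the gene, and the 804 nt exon lay in a separate 5′ piece of 8 exons and 1.39 TPM. Grey replicate 1 had a like piece of 0.62 TPM beside its longer forms. Whether the late forms are separate starts or pieces of longer RNAs was not tested. In every library the 804 nt exon was read less deeply than the 206 nt exon near the 3′ end, at 0.21 to 0.34 times its coverage. A 120 nt exon (107919926 to 107920045) was included at 85.8%, 40.4% and 100% in the black possums and at 86.1%, 100% and 100% in the grey possums (exact permutation p = 0.40). A 48 nt exon (107908860 to 107908907) was included at 60.6%, 35.3% and 79.8% in the black possums and at 59.9%, 76.7% and 0% in the grey possums (exact permutation p = 0.60). The short form of grey replicate 3 began inside this last exon, and with ends matched to within 10 nt the difference between colours was 2.31 points in place of 13.03.

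RAB38, the GTPase altered in the chocolate mouse, had 169, 121 and 125 TPM in the black possums and 71.0, 136 and 164 TPM in the grey possums. Grey replicate 1 was the lowest library, and the other 5 lay between 121 and 169 TPM without order by colour. The means were 138 ± 26.3 TPM in black skin and 124 ± 47.7 TPM in grey skin (SD, n = 3 each; exact permutation p = 0.80). The log2 fold change of 0.23 had a 95% interval of -0.55 to 1.01 (limma adjusted p = 1.00) and was -0.13 without grey replicate 1. The difference in TPM was -0.41 without black replicate 1 and -11.7 without grey replicate 1. The direction of the log2 fold change rested on grey replicate 1, which also had the lowest keratinocyte marker sum. The part of its cell type markers in this level and in the high SYTL2 level was not tested.

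Each library gave the same pair of RAB38 forms, a dominant one of 3 exons and a minor one of 4 exons. The added exon was 120 nt long (chromosome 2, 105179081 to 105179200) and was held by 4.68, 5.57 and 4.50 TPM in the black possums and by 5.10, 5.77 and 3.77 TPM in the grey possums. The level of the minor form was thus nearly even across libraries while the dominant form ranged from 65.9 to 164 TPM. Its inclusion share was 2.77%, 4.60% and 3.58% in the black possums and 7.18%, 4.24% and 2.30% in the grey possums, highest where the gene was lowest (exact permutation p = 0.70 between colours).

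RAB32, the close relative of RAB38, had 9.24, 3.83 and 13.5 TPM in the black possums and 7.21, 9.78 and 11.1 TPM in the grey possums. Black replicate 2 was the lowest and black replicate 3 the highest library, with the grey possums between. The means were 8.85 ± 4.83 and 9.36 ± 1.97 TPM in black and grey skin (SD, n = 3 each; exact permutation p = 0.90), and the log2 fold change of -0.19 had a 95% interval of -1.18 to 0.79 (limma adjusted p = 1.00). Without black replicate 2 it was 0.25.

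The low value of black replicate 2 went with a different 3′ end. RAB32 had 1 transcript of 3 exons in each library, and the last exon was 4448 nt long in black replicate 2, against 863 nt and 715 nt in the other black possums and 691 to 1021 nt in the grey possums. TPM divides by transcript length, which was 5149 nt in that library and 1375 to 1684 nt in the others. The middle exon (chromosome 7, 110911171 to 110911448) was the same 278 nt in all 6 libraries. Its coverage per aligned gigabase was 5.40, 3.81 and 6.21 in the black possums and 5.89, 4.89 and 5.97 in the grey possums. By this exon black replicate 2 was still the lowest library, but the highest was 1.63 times the lowest, against 3.51 times by TPM. In black replicate 1, a separate unspliced transcript of 1279 nt and 3.36 TPM on the same strand (110903860 to 110905138) overlapped the far end of the extra stretch (110903933 to 110908380 for the whole exon) and was assigned to no gene.

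**Figure D3:**
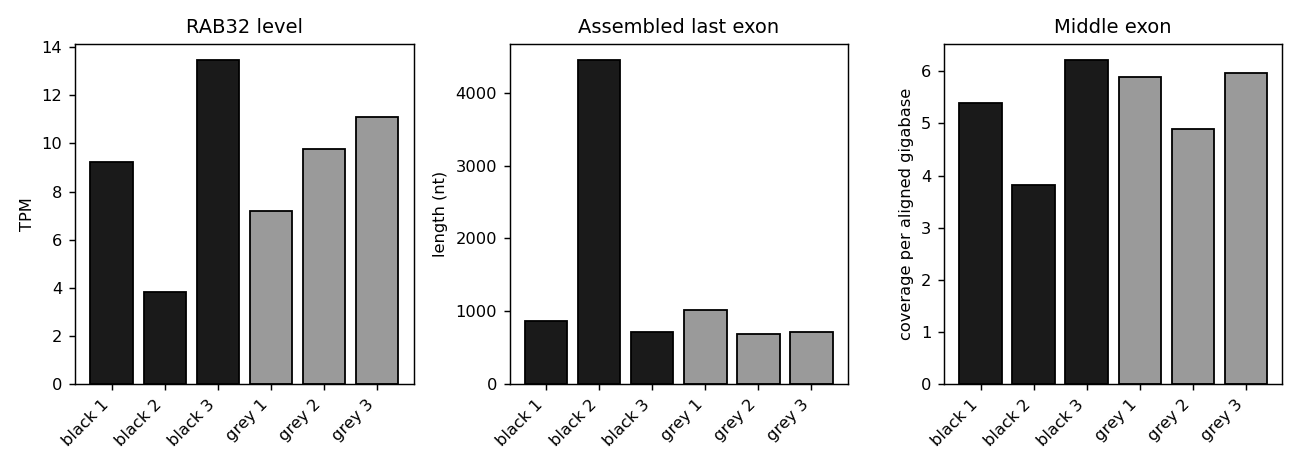
RAB32 in the 6 libraries, with black possums left of grey possums. The panels give its level in TPM, the length of its assembled last exon in nt, and the coverage of its middle exon per aligned gigabase. Black replicate 2 is lowest in TPM at 3.83 and has the longest last exon at 4448 nt, while the middle exon spans 3.81 to 6.21 over all libraries.

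Across the 6 genes, 21 alternative exons met the rule of lying within an intron of another transcript, all in the 5 genes other than RAB32. Of these, 11 gave a share in all 6 libraries and were held and skipped within at least 2 libraries or, for the 75 nt exon of MYO5A, were named in the aim of describing its tail, and 9 of the 11 had a length that is a multiple of 3. The ranges of black and grey possums overlapped for all 11 shares. The smallest exact permutation p was 0.30, and the smallest Benjamini-Hochberg adjusted p over the 11 was 0.73. The 266 nt exon of MYO5A differed by -7.62 points, more than either SD (7.32 in black skin and 5.70 in grey skin). Every other share differed by less than its larger SD. With a smallest possible p of 0.10, these tests cannot show that a difference lies within the spread between possums. For the 81 nt exon of MYO5A the exact permutation p was 0.40, also with ends matched to within 10 nt. It was 0.10, the smallest this design can give, with the 86 nt variant counted as not holding the exon. That way of counting was added after seeing the data, and its p was not adjusted.

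**Figure D4:**
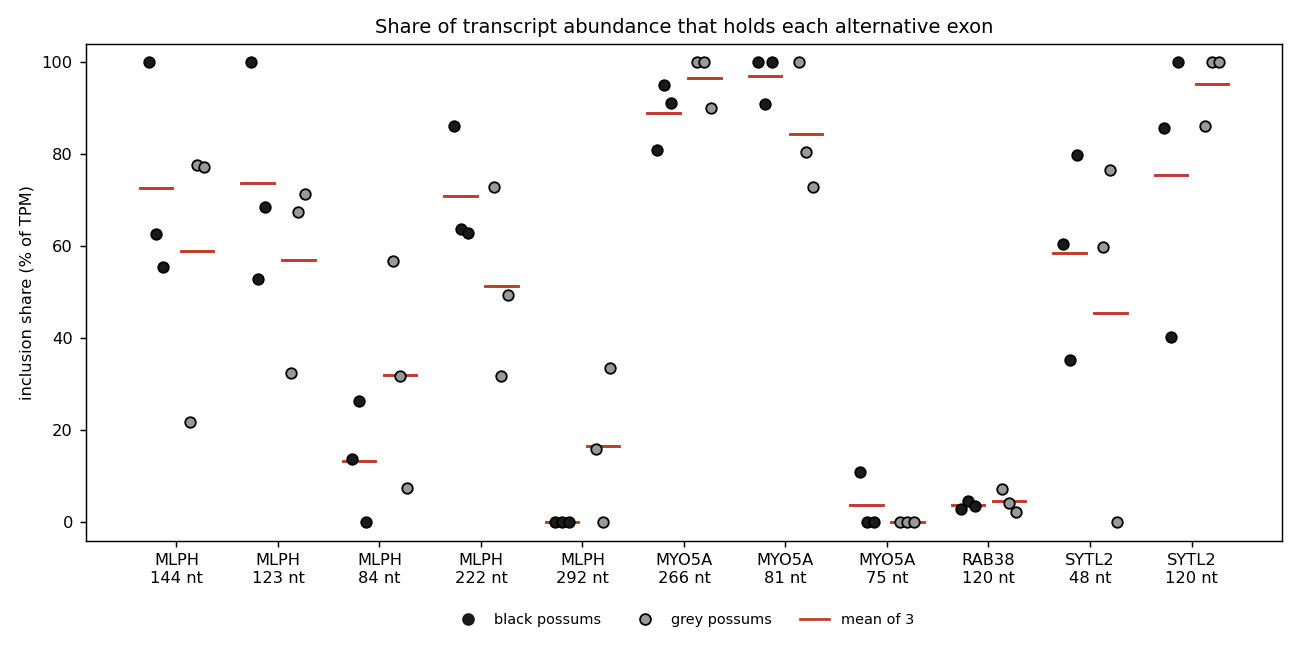
Inclusion share, in percent of TPM, of the 11 compared exons (horizontal axis, by gene and length in nt), with black possums left of grey possums at each exon. Points are single possums and red lines are means of 3. The shares of the 144 nt and 123 nt forms of the MLPH exon each leave out transcripts with the other form. The 81 nt exon of MYO5A lies at 73.0% or above in every library, the 120 nt exon of RAB38 at 7.18% or below, and the 48 nt exon of SYTL2 runs from 0% to 79.8%.

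The transport genes were set beside 14 melanocyte genes, whose mean log2(TPM + 1) was 3.22, 2.84 and 3.74 in the black possums and 2.77, 3.76 and 2.67 in the grey possums. The main pigment genes were highest in black replicate 3 and grey replicate 2, as for TYR, the first enzyme of melanin synthesis, with 5.83, 4.94 and 12.3 TPM in the black possums and 3.44, 14.0 and 3.51 TPM in the grey possums. The highest library was 4.07 times the lowest for TYR, 6.19 times for TYRP1, 6.70 times for DCT, 4.30 times for PMEL and 3.36 times for MLANA, but 1.29 times for MITF, 1.72 times for KIT and 1.80 times for SOX10 of the same list. Among the transport genes it was 4.47 times for SYTL2, 3.51 times for RAB32, 2.51 times for MLPH, 2.38 times for RAB38, 1.76 times for MYO5A and 1.33 times for RAB27A, so the spreads of both groups overlapped. Pearson r with the melanocyte mean was 0.51 for RAB32, 0.43 for MYO5A, 0.32 for MLPH, 0.22 for RAB38, 0.12 for RAB27A and -0.06 for SYTL2 (n = 6; exact permutation p = 0.31 for RAB32 and higher for the others, adjusted p = 0.94 for all 6). Spearman rho ran from -0.09 for RAB27A to 0.54 for MYO5A (exact permutation p = 0.30 for MYO5A and higher for the others, adjusted p = 0.92 for all 6).

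Without black replicate 3 and grey replicate 2, the libraries farthest from the median of the melanocyte mean, r was 0.05 for RAB32, -0.50 for MYO5A, -0.36 for MLPH, 0.38 for RAB38, 0.93 for RAB27A and 0.29 for SYTL2 (n = 4). The signs for MYO5A and MLPH thus rested on those libraries. Within black and within grey possums, r was 0.95 and 0.15 for RAB32, 0.09 and 0.85 for MYO5A, -0.18 and 0.95 for MLPH, 0.00 and 0.23 for RAB38, 0.22 and -0.96 for RAB27A, and 0.46 and -0.25 for SYTL2 (n = 3 each). With 6 libraries these tests could not show a moderate relation, and a missed threshold does not show that the genes are independent of melanocyte content.

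**Figure D5:**
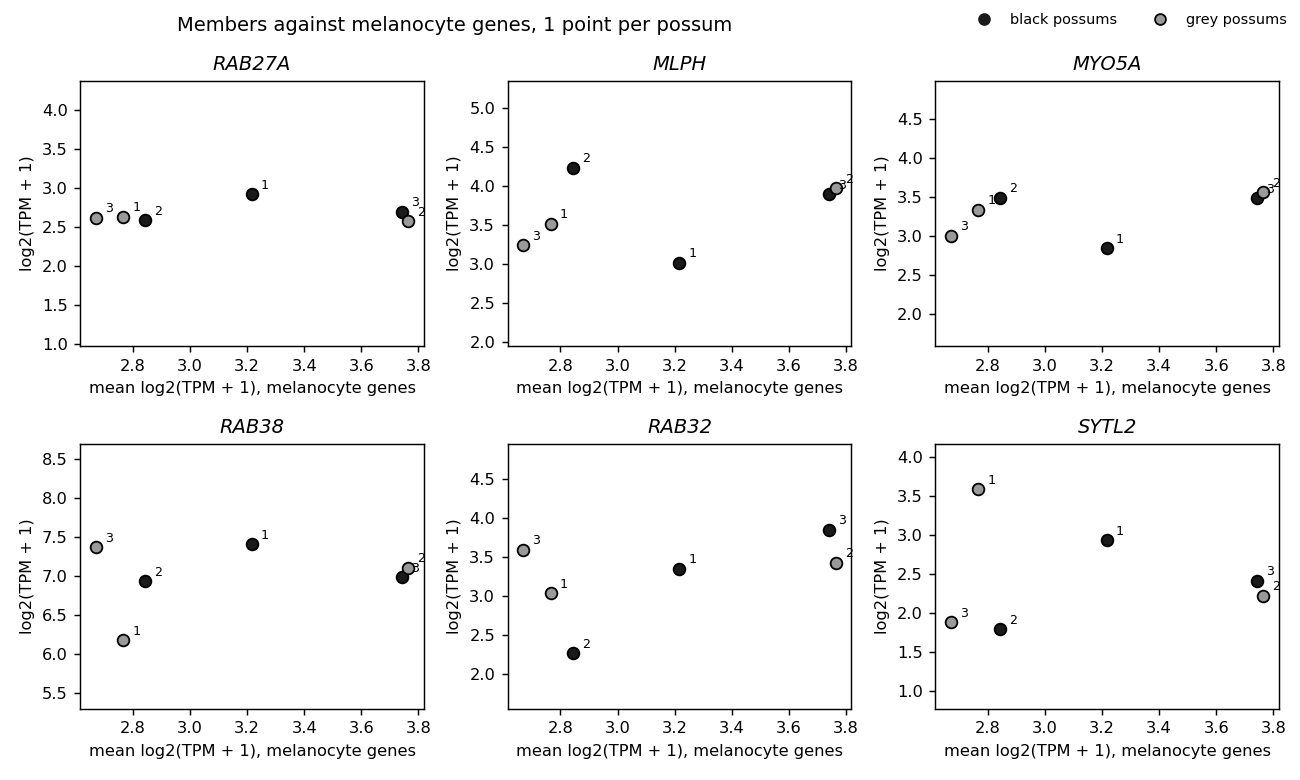
Level of each gene, as log2(TPM + 1), against the mean log2(TPM + 1) of 14 melanocyte genes in the 3 black and 3 grey possums, with points numbered by replicate and vertical axes of equal extent. Black replicate 3 and grey replicate 2 lie at the right of every panel at 3.74 and 3.76, and no gene follows the melanocyte mean across all 6 libraries.

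The genes whose pattern across the 6 libraries was most like each of the 6 were taken by Pearson r of log2(TPM + 1) among 9496 named genes that averaged 5 TPM or more. They were PTPRE and CDAN1 for RAB27A (both 0.99), ERGIC2 and PAK1 for MLPH (both 0.99), SNX5 for MYO5A (0.99), and RNASE13 (0.99) and P3H1 (0.98) for SYTL2. For RAB38 they were LYPD5 and TAX1BP1 (both 0.99), and for RAB32 TAOK2 (0.99) and DNAJC16 (0.98). These values are the highest of a search over many genes in the same libraries and are a description only.

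Of 45 further genes of melanosome transport and its partners, 40 had a transcript and were tested, and 0 passed the limma threshold in either direction. The unadjusted p was below 0.05 for 2 of the 40, and the TPM ranges of black and grey possums were separate for 5 of the 40, 12.5% against 6.34% of all genes. The median log2 fold change was 0.00, with 20 genes above 0 and 20 below.

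Among the other RAB27 effectors, 7 of 9 were tested and 0 passed the threshold, with a median log2 fold change of 0.19. EXPH5 (Slac2-b), a RAB27 effector of epidermal keratinocytes, had 16.5, 19.9 and 29.5 TPM in the black possums and 11.7, 13.03 and 11.2 TPM in the grey possums. All 3 black possums were above all 3 grey possums, at a log2 fold change of 0.79 ± 0.24 (SE; limma unadjusted p = 0.013, adjusted p = 1.00). SYTL1 was the most abundant of the group, at 84.7 ± 13.3 TPM in black skin and 75.7 ± 35.3 TPM in grey skin (SD, n = 3 each). MYRIP and RPH3A had no assigned transcript. For the enzymes and regulators that attach lipid to RAB proteins or switch RAB27, 6 of 7 were tested, 0 passed and the median was -0.04.

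Among actin motors and their partners, 7 of 8 were tested and 0 passed, with a median of -0.08. MYO5B, a relative of MYO5A that works on recycling endosomes, had 3.64, 3.11 and 3.58 TPM in the black possums and 9.02, 6.17 and 5.20 TPM in the grey possums. All 3 black possums were below all 3 grey possums, at a log2 fold change of -0.78 ± 0.25 (SE; limma unadjusted p = 0.017, adjusted p = 1.00). SPIRE1, an actin nucleator, averaged 10.3 ± 0.43 TPM in black skin and 11.9 ± 2.57 TPM in grey skin (SD, n = 3 each).

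The list for RAB32 and RAB38 had 5 of 5 genes tested, 0 past the threshold and a median of -0.06. HPS1, a subunit of the BLOC-3 complex that activates RAB32 and RAB38, had 23.9, 21.1 and 20.01 TPM in the black possums and 17.0, 19.6 and 9.81 TPM in the grey possums. The ranges were separate, with grey replicate 2 close below the black possums, at a log2 fold change of 0.51 ± 0.27 (SE; limma unadjusted p = 0.098, adjusted p = 1.00). ANKRD27 (Varp), which binds both GTPases, averaged 15.6 ± 2.39 TPM in black skin and 15.5 ± 1.49 TPM in grey skin (SD, n = 3 each).

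For microtubule transport, 8 of 9 genes were tested and 0 passed, with a median of 0.02. MREG (melanoregulin), the product of the dilute suppressor gene in mouse, had 32.4, 33.4 and 37.9 TPM in the black possums and 20.97, 29.7 and 26.4 TPM in the grey possums. The ranges were separate, at a log2 fold change of 0.42 ± 0.18 (SE; limma unadjusted p = 0.052, adjusted p = 1.00). RAB1A had 197, 204 and 217 TPM in the black possums and 179, 183 and 187 TPM in the grey possums, also separate, at 0.17 ± 0.13 (SE). Of the other RABs found on melanosomes, 7 of 7 were tested, 0 passed and the median was -0.03. RAB11A, a RAB of recycling endosomes, averaged 121 ± 43.9 TPM in black skin and 135 ± 26.5 TPM in grey skin (SD, n = 3 each).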

How the data were processed

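RNA from ear skin of 3 black and 3 grey possums was analysed from 1 file of assembled transcripts per library. Per the labels and the study's methods, reads were quality trimmed (Trim Galore, version 0.6.10), mapped with HISAT2 (version 2.2.1) and assembled library by library with StringTie (version 2.2.0). For each transcript the authors deposited coverage, FPKM and TPM, and for each exon its coverage. Read counts were not used here, and a count test was therefore not run. The RefSeq gene table of mTriVul1.pri lists spans only. Strand and exons were inferred from transcripts that matched a span (0.5 or more of the joint span shared, or 80% of either inside the other), and transcripts were assigned by exon overlap on the same strand (232077 of 274079, with 646 more by the deposited gene name).

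Log2(TPM + 1) of the 15608 genes that averaged 1 TPM or more was fitted in limma (version 3.58.1, R version 4.3.3) with a mean-variance trend. P-values were adjusted by Benjamini-Hochberg with a threshold of 0.05. This scale understates changes of low genes. TPM and inclusion shares were compared by exact 2-sided permutation over the 20 assignments of 6 libraries. Fits were tested on simulated data. Aligned gigabases came from the ratio of coverage to FPKM. Summed coverage of a gene in a library ranged from 11.1 (SYTL2) to 878 (RAB38). Each replicate is a separate possum.

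The genes, lists and tests were chosen with earlier results of these data known. Named genes were the 6, the 2 most abundant and the 1 of smallest p in each list (only some are printed), 5 pigment genes, and the 2 genes most like each of the 6 (1 of them is not reported here). The exons compared and the pairs among the 6 genes were chosen after values were seen. The fit was repeated with other pseudocounts, filters, scalings and variance models, a replicate block, fixed exon lengths and each replicate left out. Coverage of shared internal exons and the other ways of counting the MYO5A tail exon were added after seeing the data.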

Additional observations from a re-analysis of the deposited data

How the results depend on the processing

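No member passed the limma threshold under any of 17 alternatives (adjusted p 0.99 to 1.00), while the count over all genes was 3 in the reported fit, 0 with the replicate block, without black replicate 3 and without grey replicate 2, 1 without black replicate 2 or when genes had to average 5 TPM, and 7 with a fixed exon length. Inclusion shares stayed above the threshold, which 3 against 3 libraries cannot pass, and so did the relations to melanocyte genes. The small fold changes did not all hold their direction. With a fixed exon length the log2 fold change was -0.0069 for MLPH, 0.0099 for MYO5A and 0.24 for RAB32, and the difference in coverage per aligned gigabase was -0.049 for MLPH, 0.11 for MYO5A and 0.43 for RAB32. With coverage of shared internal exons the log2 difference was -0.0062 for RAB27A, -0.026 for MLPH and 0.037 for MYO5A. RAB32 kept its direction by shared internal exons (-0.14). RAB38 and SYTL2 kept theirs by both measures, at 0.27 and -0.23 with a fixed exon length and at 0.31 and -0.74 with shared internal exons. The cause of these shifts was not tested. Coverage of shared internal exons avoids the length of each assembled transcript. The fixed exon length does not fully avoid it, since bases over each whole assembled transcript are summed before division by a common length. By fixed exon length, RAB32 of black replicate 2, with its 5149 nt transcript, was the highest library (2.03, against 1.22 to 1.90 in the others). By TPM it was the lowest.

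Leaving out each replicate in turn gave log2 fold changes of 0.03 to 0.20 for RAB27A, -0.12 to 0.49 for MLPH, -0.18 to 0.19 for MYO5A, -0.13 to 0.47 for RAB38, -0.54 to 0.25 for RAB32 and -0.52 to 0.33 for SYTL2. Differences in TPM were 0.15 to 0.93 for RAB27A, -0.73 to 4.65 for MLPH, -1.10 to 1.23 for MYO5A, -11.7 to 34.8 for RAB38, -2.82 to 1.99 for RAB32 and -2.86 to 1.30 for SYTL2. Shares changed direction for the 144 nt exon of MLPH (-4.66 to 23.2 points), the 120 nt exon of RAB38 (-2.06 to 0.38) and the 48 nt exon of SYTL2 (-9.72 to 28.6).

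The labels do not say that replicate numbers pair the possums. Deviations of the same-numbered black and grey libraries correlated at -0.03, 0.02 and -0.05, a check too small to settle whether they are paired. With the replicate number as a block the fold changes were the same by construction (0.13 for RAB27A, 0.14 for MLPH, -0.03 for MYO5A, 0.23 for RAB38, -0.19 for RAB32 and -0.18 for SYTL2) and 0 of 6 genes were called. Assignment by the deposited gene name alone gave no value, since no transcript of the 6 genes carries one. At the coverage of RAB27A (11.2 to 27.7), rare exons can be missed.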
